A study of Homo sapiens with 6 samples.

Results

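The 10 genes described here build the machinery that joins and divides mitochondria: MFN1, MFN2, OPA1, DNM1L, FIS1, MFF, MIEF1, MIEF2, GDAP1 and SLC25A46. They were taken by name and matched by Ensembl ID, and all 10 were found among the 60671 gene IDs of the count table. The table counts RNA that came down with an anti-myc antibody from transfected HEK cells, an established line from human embryonic kidney. It holds 3 libraries named WT.Control, whose treatment label reads untreated, and 3 named AAA.mito, whose treatment label reads AAA mutant. The source of the first is given as RNA binding SYNJ2BP, an outer mitochondrial membrane protein, and that of the second as RNA binding its AAA mutant. The labels do not say what the control cells were transfected with, which residues the mutation changes, or what "mito" adds, and the groups could therefore differ in other ways too. The design asks how SYNJ2BP mutants change which RNA SYNJ2BP binds. Whether replicates are separate cultures is not stated. Each p-value is thus judged against the variation among these 6 libraries, part of which may be technical.

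Mitochondria fuse in steps. The mitofusins MFN1 and MFN2, large GTPases anchored in the outer membrane, join outer membranes, and OPA1, a dynamin-like GTPase, joins inner membranes. Division is carried out by DRP1, the cytosolic GTPase encoded by DNM1L, which outer-membrane receptors (MFF, FIS1, MIEF1 and MIEF2) recruit to sites of constriction. GDAP1 is an outer-membrane protein linked to fission and to inherited neuropathy, and SLC25A46 is an outer-membrane relative of the mitochondrial carriers that works with the fusion machinery.

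In the AAA mutant libraries less MFN2 and less MIEF1 RNA was recovered once libraries with the same replicate number were treated as pairs. MFN2 fell by 2.28 ± 0.39 on the log2 scale (SE, n = 3 pairs; adjusted p = 0.000701) and MIEF1 by 1.08 ± 0.26 (adjusted p = 0.0228, edgeR's quasi-likelihood test with Benjamini-Hochberg adjustment over all genes). The other 8 genes did not pass, with fold changes between −0.44 and 0.18 on the log2 scale and adjusted p-values of at least 0.666. So 2 of 10 members fell and 0 rose, where 1.40% of all 33375 tested genes fell and 0.00599% rose. The members were chosen with earlier results of these data known, so these shares do not test the machinery against all genes. In bulk precipitates like these, less bound RNA, less RNA per cell and fewer cells cannot be told apart, and input libraries were not analysed here. Without the pairs no member and 0% of tested genes passed by edgeR, with 25 genes at an unadjusted p under 0.05 and 0 adjusted calls by DESeq2 and by limma-voom as well. For edgeR, 25 of 33375 is far fewer than evenly spread p-values would give, so the p-values of that fit ran high. In that edgeR fit MFN2 had −2.70 ± 1.00 (SE, n = 3 per group; unadjusted p = 0.0228, quasi-likelihood test). MIEF1 had −1.04 ± 0.94 there (unadjusted p = 0.297, same test). The 10 members had a median of −0.30 in the paired fit, beside −0.08 over all tested genes. Genes far above background had a median of −0.50. They are the 4839 tested genes with an average count density more than 8 times that of olfactory receptor genes, a sensory family taken as little transcribed. Of those genes 7.94% fell, and 3 members were among them: MFN2, MIEF1 and FIS1.

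Total counts ran from 3287218 to 73331652 per library. The share of nuclear gene counts that this background density would produce was 6.40% to 7.23% in replicate 3, 36.8% and 53.7% in control and mutant replicate 1, and 79.1% to 81.8% in replicate 2. Of 5 genes fixed as HEK markers, the neurofilament genes NEFL, NEFM and INA lay more than 8 times above background in both replicate 3 libraries. The kidney factor PAX2 lay at 2.97 and 4.47 times in control and mutant replicate 3, and LHX1 at 8.62 and 7.45 times. Markers of hepatocytes and erythroid cells lay at most 3.50 times above it there, 1 of 3 markers each of fibroblasts, leukocytes and neurons lay above 8 times, and none of these markers was called.

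Because each mitofusin and each MIEF gene has a paralog in the set, the coding sequences were compared to see whether short reads could be credited to the wrong copy. The coding sequences of MFN2 and MFN1 were identical at 66.0% of 2200 aligned bases, and those of MIEF1 and MIEF2 at 60.5% of 1343. The longest exact run shared within each pair was 14 bases. For MIEF1 and MIEF2 it is shown in capitals, 5′ to 3′, inside 90 bases of each coding sequence from the GENCODE 29 transcripts (GRCh38), as the longest stretch in which the copies cannot be told apart:
MIEF1: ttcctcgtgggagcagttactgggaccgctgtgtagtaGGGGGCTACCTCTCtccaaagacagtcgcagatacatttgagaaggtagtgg
MIEF2: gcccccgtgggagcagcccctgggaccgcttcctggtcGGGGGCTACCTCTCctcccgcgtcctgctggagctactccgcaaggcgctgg
The MIEF1 window covers coding bases 722 to 811 and the MIEF2 window bases 698 to 787. None of the 2225 windows of 50 bases in the MFN2 coding sequence, and none of the 1343 in that of MIEF1, occurred in a transcript of another gene. The coding sequence makes up 50.1% of the MFN2 transcript and 24.7% of the MIEF1 transcript, and the rest of each was not compared. Of the other 8 members, MFF shared 8.67% of such windows and MFN1 3.22% with the genes AC008427.1 and AL118496.1, and DNM1L shared 0.463%. No source states the read length.

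MFN2 (ENSG00000116688) lies on chromosome 1 at 11980181 to 12013514 on the plus strand of GRCh38. No other annotated gene overlaps it. Its counts were 5594, 596 and 21578 in control replicates 1, 2 and 3 and 395, 98 and 4343 in mutant replicates 1, 2 and 3. As CPM, the count relative to the TMM-scaled total of its library, these were 403, 39.9 and 520 in the control against 45.0, 22.6 and 80.7 in the mutant. Every mutant library was below the control library with its number, 8.94-fold in pair 1, 1.76-fold in pair 2 and 6.44-fold in pair 3. The groups overlapped all the same, because control replicate 2 was below mutant replicates 1 and 3. None of the 10 members had every mutant library below every control library, which was so for 0.446% of tested genes. Being lower in all 3 pairs was true of 18.2% of tested genes and 38.6% of those far above background, so the size of the fall sets MFN2 apart more than its sign does. Among the 4839 genes far above background MFN2 held rank 14 from the lowest by fold change in the paired fit. Its rank was 38 in pair 1, 713 in pair 2 and 15 in pair 3, so pair 2 placed it far less low than the other pairs. The MFN2 call was lost without pair 1 (−1.87, adjusted p = 0.353) and without pair 3 (−2.06, adjusted p = 0.353). It was also lost when the scaling factors came from the 4839 genes far above background (−1.79, adjusted p = 0.0859) and with the background subtracted (−2.34, adjusted p = 0.996), all by edgeR with the pairs. With the background subtracted the SE was 0.40, and 0 of 23995 tested genes were called. Without pair 3, 0 of 33272 tested genes were called.

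MFN1 (ENSG00000171109, chromosome 3, 179347692 to 179394931, plus strand), the second mitofusin, had 22.9, 15.0 and 43.9 CPM in control replicates 1, 2 and 3. The mutant libraries had 19.6, 10.2 and 43.9 CPM. The mutant was lower in pairs 1 and 2, by −0.22 and −0.56 on the log2 scale, and replicate 3 gave equal values to 3 digits. The fold change was −0.24 ± 0.24 with the pairs (adjusted p = 0.917, edgeR). OPA1 had 58.9, 32.2 and 108 CPM in the control and 28.7, 29.1 and 129 CPM in the mutant. Its pairs disagreed, with a log2 difference of −1.04 in pair 1, −0.14 in pair 2 and 0.25 in pair 3, and its fold change was −0.30 ± 0.27. OPA1 overlaps the antisense gene OPA1-AS1 over 8.34% of its span.

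**Figure D1:**
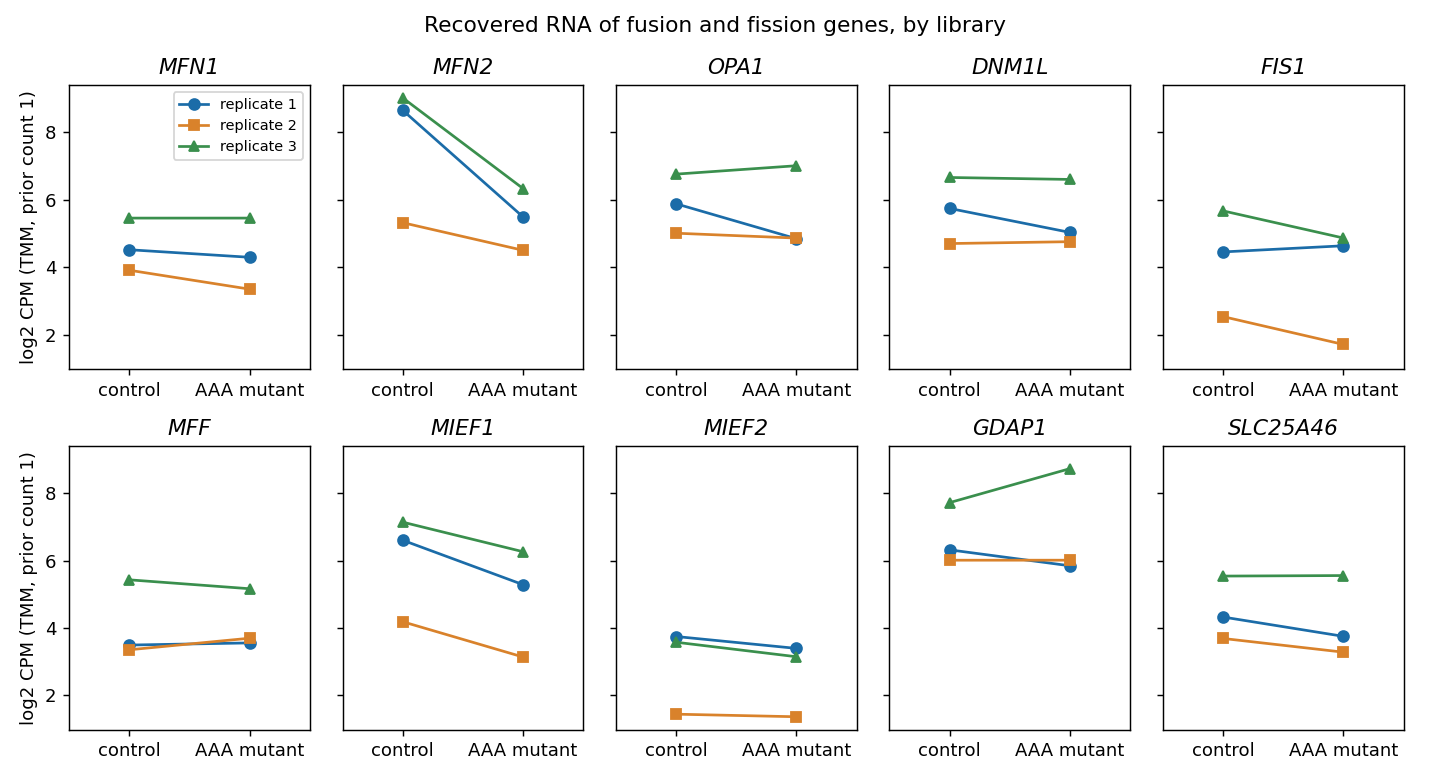
Recovered RNA of each of the 10 genes as log2 CPM (TMM factors, prior count 1) in control and AAA mutant libraries, with a line joining libraries of the same replicate number. MFN2 drops steeply in replicates 1 and 3 and less in replicate 2, MIEF1 drops by a similar step in all 3, and those of MFF and MIEF2 move by less than 0.5 in every pair.

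A ratio of 2 genes within a library does not depend on how libraries are scaled, so 3 such ratios were compared. MFN2 had 17.6, 2.66 and 11.8 counts for each MFN1 count in control replicates 1, 2 and 3. In the mutant libraries it had 2.30, 2.23 and 1.84. Each mutant ratio was below each control ratio. These ratios include background counts: background would account for 41.7%, 97.3% and 5.80% of the MFN1 counts in control replicates 1, 2 and 3. For mutant replicates 1 and 3 the shares were 54.3% and 4.90%, and in mutant replicate 2 MFN1 lay below background. On the log2 scale the ratio was 3.04 ± 1.44 in the control and 1.08 ± 0.17 in the mutant (SD, n = 3; exact two-sided permutation p = 0.1, which is the smallest that 3 libraries against 3 can give, and 0.3 adjusted over the 3 ratios). The pair differences were −2.94, −0.26 and −2.69, so pair 2 contributed little. The ratio of MFN2 to OPA1 was 1.78 ± 1.30 in the control and −0.13 ± 0.69 in the mutant on the log2 scale (SD, n = 3; exact two-sided permutation p = 0.2, 0.3 adjusted), and it was lower in the mutant in all 3 pairs. Background would account for 35.9% and 82.1% of the OPA1 counts in control and mutant replicate 1. In control and mutant replicate 2 OPA1 lay at 0.994 and 0.934 times background. The OPA1 shares in control and mutant replicate 3 were 5.20% and 3.70%. For MIEF1 over MIEF2 the log2 ratio was 3.06 ± 0.44 against 2.27 ± 0.74 (SD, n = 3; exact two-sided permutation p = 0.3, also 0.3 adjusted), with pair differences of −0.96, −0.97 and −0.44. Background would account for 69.4% and 70.5% of the MIEF2 counts in control and mutant replicate 2. None of the 3 ratios passed the threshold of 0.05, which this design cannot reach.

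**Figure D2:**
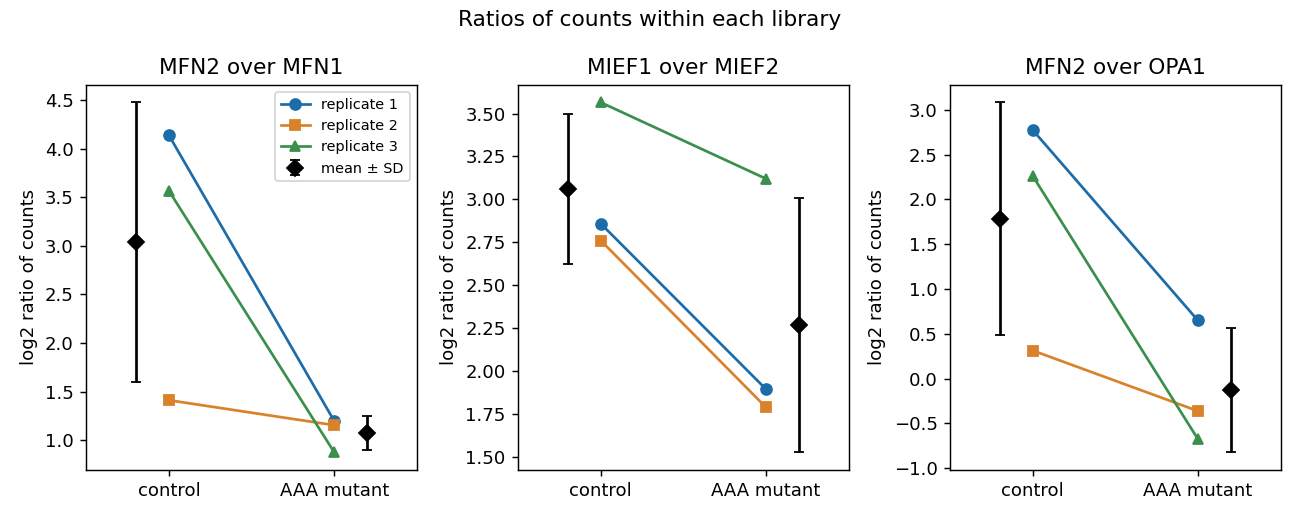
Log2 ratio of the counts of 2 genes within each library for MFN2 over MFN1, MIEF1 over MIEF2 and MFN2 over OPA1, with lines joining the same replicate number and diamonds for the group mean ± SD (n = 3). All 9 lines slope down from control to mutant, and only for MFN2 over MFN1 do the groups not overlap.

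Of the fission genes, DNM1L, which encodes the GTPase itself, had 53.6, 26.0 and 101 CPM in control replicates 1, 2 and 3 and 32.7, 27.0 and 97.2 CPM in the mutant. Only pair 1 showed a sizeable difference, of −0.71 on the log2 scale, and the fold change with the pairs was −0.24 ± 0.25 (adjusted p = 0.928, edgeR). DNM1L shares 27.3% of its span with YARS2, a mitochondrial tRNA synthetase gene on the other strand, and whether the counting used strand is not given, so reads of the 2 genes may not be told apart where they overlap. YARS2 itself had −0.59 ± 0.25 and did not pass.

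MIEF1 (ENSG00000100335), which encodes a DRP1 receptor, lies on chromosome 22 at 39499432 to 39518132, plus strand. It had 97.1, 18.2 and 141 CPM in control replicates 1, 2 and 3 and 39.0, 8.77 and 76.7 CPM in the mutant. Each mutant library was about as far below its control partner as the next, with log2 differences of −1.32, −1.05 and −0.88. Genes far above background had median differences of −0.81, 0 and −0.62 in pairs 1, 2 and 3. Relative to those medians MIEF1 lay at −0.51, −1.05 and −0.26, so its pairs were less alike. The group ranges overlapped, since control replicate 2 was below mutant replicates 1 and 3. MIEF1 held rank 477 of the 4839 genes far above background by fold change, and ranks of 1014, 507 and 1486 in pairs 1, 2 and 3. Its call was lost without pair 1 (−1.01, adjusted p = 0.831), pair 2 (−0.93, 0.598) or pair 3 (−1.21, 0.318), with the fold change little moved. It was also lost with upper quartile factors (−0.91, adjusted p = 0.0584), no filter (−0.996, 0.195), the background subtracted (−1.24, 0.996) and factors from genes far above background (−0.60, 0.614), all by edgeR with the pairs. With the background subtracted the SE was 0.44, and of all tested genes 0 were called. Without pair 3 that count was also 0.

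The annotation places MIURF inside MIEF1, on the same strand. It is a short reading frame in the leading part of the same mRNA, and its microprotein is known to act with the mitochondrial ribosome. MIURF had 96, 7 and 319 counts in the control and 20, 0 and 185 in the mutant libraries. Its fold change was −1.44 ± 0.46 (adjusted p = 0.127, edgeR with the pairs), and it did not pass. The MIURF counts come from the MIEF1 transcript region and are not separate evidence.

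The paralog MIEF2 (ENSG00000177427, chromosome 17, 18260534 to 18266552, plus strand) was the least counted member, with 11 counts in mutant replicate 2. It had 13.4, 2.68 and 11.9 CPM in the control and 10.5, 2.54 and 8.82 CPM in the mutant. The mutant values were slightly lower in all 3 pairs, by −0.35, −0.08 and −0.43 on the log2 scale, and the fold change was −0.33 ± 0.30 (adjusted p = 0.891, edgeR). MFF, the main DRP1 receptor of many cell types, had 11.2, 10.2 and 43.0 CPM against 11.7, 12.9 and 35.8 CPM. Its fold change was 0.02 ± 0.24, with the mutant higher in pairs 1 and 2. FIS1 had 21.9, 5.76 and 50.9 CPM in the control and 24.8, 3.23 and 29.1 CPM in the mutant. FIS1 was lower in pairs 2 and 3 (−0.83 and −0.80) and higher in pair 1 (0.18), and its fold change of −0.44 ± 0.26 did not pass (adjusted p = 0.666, edgeR).

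GDAP1 was the member with the highest value above 0, at 0.18 ± 0.32 (adjusted p = 0.973, edgeR). It had 79.7, 64.4 and 210 CPM in the control and 57.4, 64.4 and 423 CPM in the mutant. A single library carried that value: mutant replicate 3 was 1.01 above its partner on the log2 scale, while pair 1 gave −0.47 and pair 2 no difference. Without pair 3 the value was −0.25. SLC25A46 had 20.0, 12.9 and 46.5 CPM against 13.4, 9.70 and 47.0 CPM, with equal values in replicate 3 to within 0.02 on the log2 scale and a fold change of −0.30 ± 0.24.

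**Figure D3:**
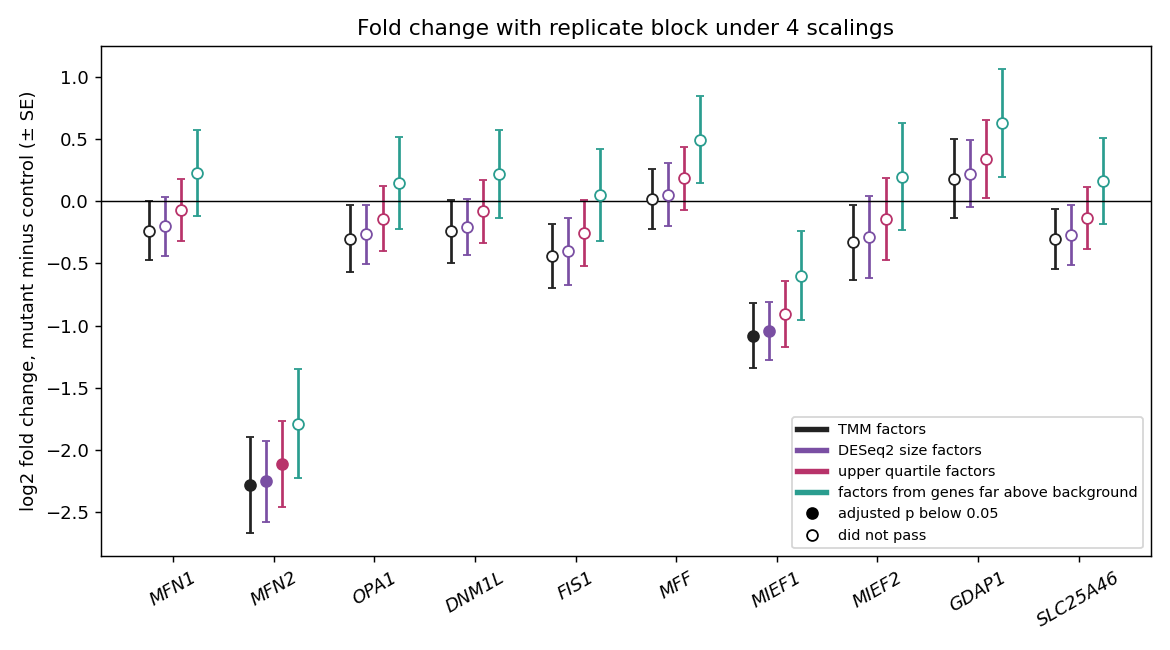
Log2 fold change of each gene, mutant minus control, with the replicate number as a block under 4 choices of scaling factors (bars are SE, filled points passed at an adjusted p of 0.05). MFN2 and MIEF1 lie below 0 under all 4, GDAP1 and MFF above 0 under all 4, and the other 6 cross to above 0 when the factors come from genes far above background.

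The sign of the small differences depended on the scaling. Factors based on the 4839 genes far above background moved the median of all tested genes from −0.08 to 0.38 in the paired fit. Relative to that median MFN2 lay between −2.21 and −2.18 under the 4 scalings and MIEF1 stayed at −0.98 or below. Relative to the median of genes far above background, MFN2 and MIEF1 were lower under all 4 scalings and each of the other 8 members was higher under all 4. New factors shift most genes alike, so this likeness across scalings was largely fixed in advance.

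The members differed widely in how far their RNA stood above background, given here as counts per base of gene span over the olfactory receptor density of the same library, with 95% exact Poisson intervals that cover counting error only. In control replicate 3 MFN2 was densest at 289 times background (285 to 293), followed by MIEF1 at 140 (136 to 143) and FIS1 at 73.5 (70.4 to 76.7). MFN1 was the least dense member of that library at 17.2 (16.5 to 18.0). MFF, GDAP1 and OPA1 lay at 24.4, 23.3 and 19.2 times there, and the intervals of MFF (23.3 to 25.6) and GDAP1 (22.8 to 23.8) overlapped. In mutant replicate 3 the order changed: MIEF1 led at 90.1 times, GDAP1 followed at 55.4, and MFN2 came after it at 53.1 times, above FIS1 at 49.8. MFN1 was again the least dense, at 20.4 times. This order holds per base of gene span only. Per kb of exon, with background subtracted, MFN2, GDAP1, FIS1 and MIEF1 led control replicate 3 in that order, and GDAP1 led mutant replicate 3, with MFN2 and FIS1 nearly equal behind it and then OPA1, DNM1L and MIEF1.

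Replicate 2 held little signal for most of these genes. The intervals of MFN1, OPA1 and MFF reached background in control replicate 2, and so did those of OPA1, FIS1, MIEF2 and SLC25A46 in mutant replicate 2. The MFN1 interval in mutant replicate 2 lay below background (0.525 to 0.970 times). MFN2 lay at 3.88 times background (3.57 to 4.20) in control replicate 2 and at 2.28 times (1.85 to 2.78) in mutant replicate 2. MIEF1 lay at 3.14 (2.78 to 3.54) and 1.58 (1.12 to 2.16). Background would account for 25.8% and 43.8% of the MFN2 counts in those libraries and for 31.8% and 63.4% of the MIEF1 counts, against at most 16.7% and 10.8% in the other 4 libraries. In pair 2, values of the remaining members rest largely on counts at the level of background. Without pair 2, MFN2 was −2.76 (adjusted p = 0.0433) and MIEF1 −0.93 (adjusted p = 0.598, edgeR with the pairs).

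**Figure D4:**
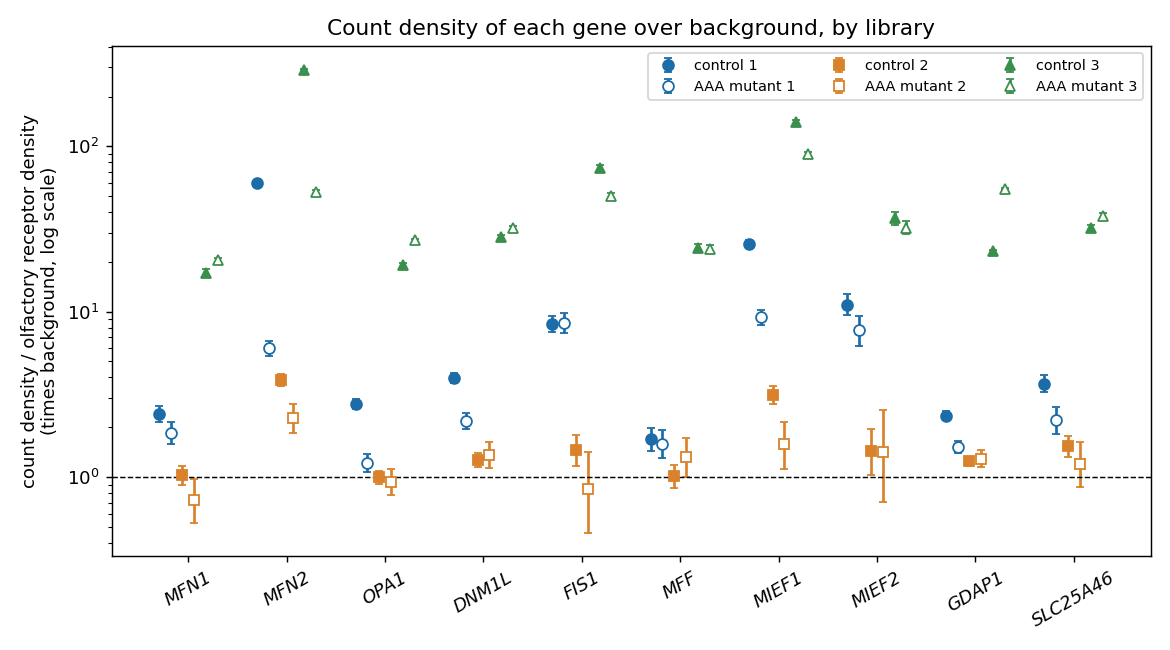
Count density of each gene per base of span, divided by the olfactory receptor density of the same library, on a log axis with 95% Poisson intervals (filled points control, open points AAA mutant; dashed line at 1). Replicate 3 libraries lie at 17.2 times or more for all 10 genes and replicate 2 libraries below 4 times for all 10, and the gap between filled and open points is widest for MFN2 in replicates 1 and 3.

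The members split by base composition, a grouping chosen after the values were seen. MFN2, MIEF1, FIS1 and MIEF2 have coding sequences of 54.7% to 66.6% G and C, and the other 6 members of 40.2% to 46.5%. The GC-rich 4 had gene spans of 6.02 to 33.3 kb and fold changes of −2.28 to −0.33. The other 6 had spans of 27.0 to 168 kb and fold changes of −0.30 to 0.18. In control replicate 1 the GC-rich 4 lay at 8.42 to 59.8 times background and the other 6 at 1.70 to 3.99 times. The groups were also apart in control replicate 3 and mutant replicate 1, and they overlapped in both replicate 2 libraries and in mutant replicate 3 (32.2 to 90.1 against 20.4 to 55.4 times). Over the 10 genes, Spearman's rho between coding GC content and fold change was −0.68, and that between span and fold change was 0.61. GC content and span were themselves related (rho −0.78), and all points come from the same 6 libraries, so these are descriptions and their part in the result was not tested.

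By log2 CPM over the 6 libraries, each gene centred on its own mean, the genes nearest to MFN2 among 15751 protein-coding genes were found by Euclidean distance. NOP2, an rRNA methyltransferase, was nearest at 0.43, followed by ESYT1, a membrane contact tether, at 0.54. ENSG00000272410, which overlaps TATDN2, lay at 0.65, and TATDN2 itself at 0.75. In the paired fit NOP2 had −2.22 ± 0.34, ESYT1 −2.34 ± 0.41, ENSG00000272410 −2.29 ± 0.39 and TATDN2 −2.46 ± 0.41. A fall of this size was thus shared by genes outside the set, though choosing by distance largely fixes that likeness. The 5 nearest to MIEF1 were ERAL1, an assembly factor of the small mitochondrial ribosomal subunit, at 0.23, then TM9SF1, SLC5A6, which carries biotin and other vitamins, KRT18, a keratin, and STRN4 at 0.31. Among the members themselves OPA1, SLC25A46 and DNM1L were most alike, at distances of 0.43 to 0.46.

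Genes that act on this machinery gave few calls. Of 70 genes in 7 lists, 2 fell, 0 rose and 68 did not pass in the paired fit, and without the pairs 0 passed. The median was −0.26, beside −0.08 over all tested genes. Of all tested genes 1.40% fell, and of genes far above background 7.94%. Of the 70 genes 25 were far above background, both called genes among them. The 2 calls were not tested against either share. Both calls were among 11 ubiquitin and SUMO modifiers of fusion and fission proteins. VCP, the ATPase that extracts ubiquitylated mitofusins from the outer membrane, fell by 1.47 ± 0.32 (adjusted p = 0.00973, edgeR). It had 445, 34.8 and 210 CPM in the control and 107, 15.2 and 96.7 CPM in the mutant, lower in all 3 pairs. MUL1, an outer-membrane ubiquitin and SUMO ligase with MFN2 among its targets, fell by 1.14 ± 0.27 (adjusted p = 0.0219, edgeR). MUL1 had 24.8, 5.76 and 41.8 CPM against 8.20, 5.08 and 16.8 CPM, nearly equal in pair 2 (−0.18). Of the 70 genes 0 were called with no filter, with factors from genes far above background, with the background subtracted, without pair 1 or without pair 3, so both calls were lost there. With the background subtracted, and without pair 3, 0 of all tested genes were called. With upper quartile factors, and without pair 2, 1 of the 70 was called.

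The remaining 6 lists had no call. Among 10 genes of OPA1 processing and prohibitin the median was −0.48, with 9 below 0. Of these 10, 5 were far above background, and the median of all tested genes of that class was −0.50. The smallest p-values there belonged to STOML2, which organizes inner-membrane proteases (−0.88 ± 0.26, adjusted p = 0.0827, edgeR), and the prohibitin PHB1 (−0.67 ± 0.27). Among 7 genes of ER and actin constriction the nonmuscle myosins MYH9 (−2.24 ± 0.65) and MYH10 (−1.86 ± 0.60) had values near that of MFN2 but wider errors, and did not pass (adjusted p = 0.0772 and 0.135, edgeR). MYH9 had 9593, 546 and 1091 CPM in control replicates 1, 2 and 3 and 2698, 63.0 and 308 CPM in the mutant, lower in all 3 pairs. Of 12 kinases, phosphatases and anchors of DRP1, the median was −0.07. CCNB1, the mitotic cyclin that partners CDK1, had −0.90 ± 0.26, and PPP3CB, a catalytic subunit of calcineurin, which dephosphorylates DRP1, had 0.55 ± 0.23.

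Of 13 other dynamics factors, the median was −0.06, and MTFR1L (−0.77 ± 0.26) and MTFP1, a fission factor of the inner membrane (−0.81 ± 0.30), had the smallest p-values. Of 6 BCL2 family genes, BAX, which permeabilizes the outer membrane, had −0.52 ± 0.25 and MCL1, which opposes it, −0.51 ± 0.28. Of 11 genes of the MICOS complex, which holds cristae junctions open, and its partners, the median was −0.20. MICOS13 (−0.66 ± 0.34) and SAMM50, which inserts beta-barrel proteins into the outer membrane (−0.45 ± 0.24), came first by p-value.

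**Figure D5:**
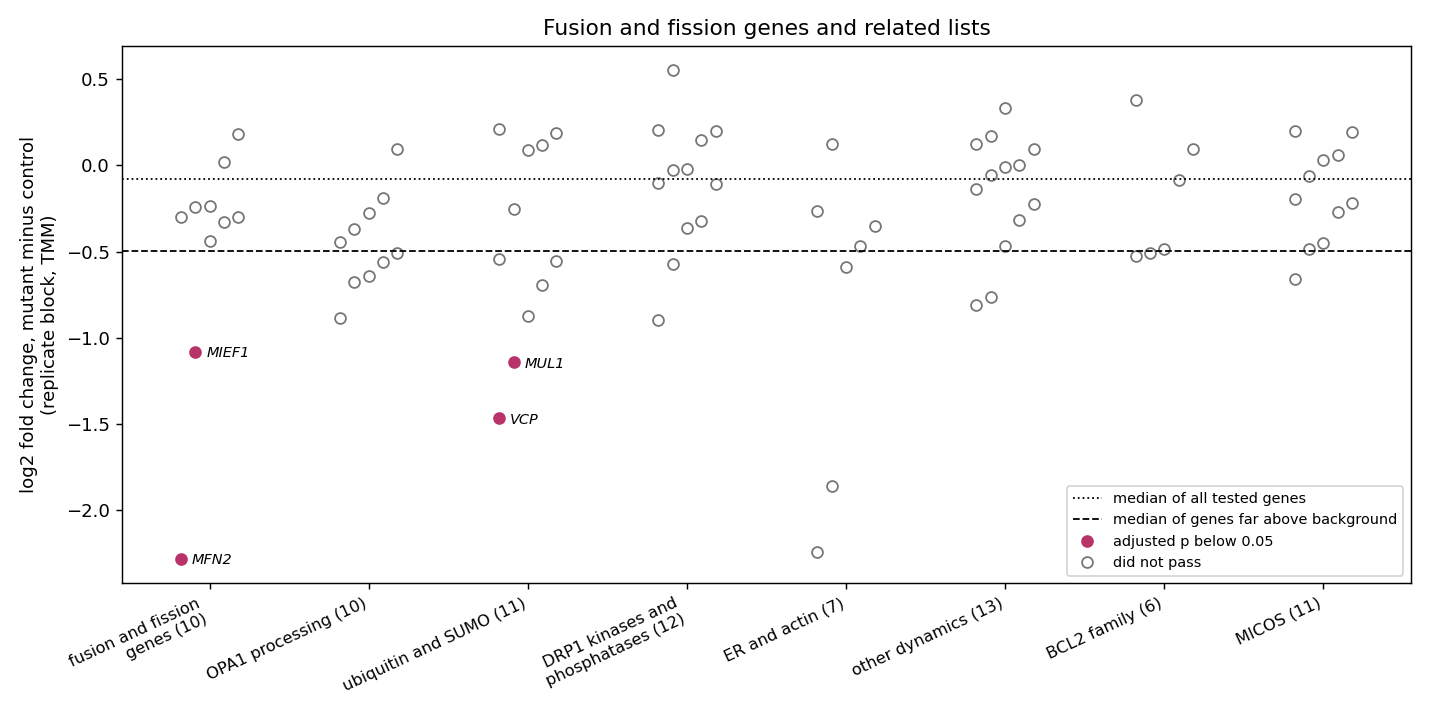
Log2 fold change, mutant minus control, with the replicate block for the 10 fusion and fission genes and for 7 lists of related genes (each point is 1 gene, filled where the adjusted p was below 0.05; lines mark the medians of all tested genes and of genes far above background). The 4 filled points are MFN2, MIEF1, VCP and MUL1, and the 2 open points near them at −2.24 and −1.86 are MYH9 and MYH10.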

How the data were processed

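Per the labels' protocols, cells were transfected with calcium phosphate, RNA was precipitated with an anti-myc antibody, ribosomal RNA was depleted and libraries were made with a commercial kit. The deposited file holds raw counts per Ensembl gene ID in 6 columns, made by the authors and not normalized. The submitters' processing notes name the aligner STAR (2.7.6a), the counter featureCounts and FastQC. Build, annotation and strand setting: not given in the sources used here. Gene positions, spans and coding sequences came from GENCODE 29 on GRCh38, which held 58453 of the IDs. From each gene's transcripts, the APPRIS principal one with the longest coding sequence was used. Groups and replicate numbers came from the sample titles.

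Tests ran in R 4.3.3 with edgeR 4.0.16 (filterByExpr, TMM, quasi-likelihood F test, Benjamini-Hochberg, threshold 0.05), which kept all 10 members. The SE is the log2 fold change over the square root of F. The planned design had no block, and blocking on the replicate number was an alternative. Across genes, deviations from the group means of libraries with the same number correlated at 0.41, 0.76 and 0.90 for numbers 1, 2 and 3. Control and mutant libraries with different numbers correlated at −0.81 to 0.27, the highest being control replicate 2 with mutant replicate 1. Background shares also differed between the numbers, and their part in these correlations was not tested. The numbers were therefore taken as pairs, a pairing that comes from this check and not from the labels. DESeq2 1.42.0, limma 3.58.1 (voom), other scaling factors, no filter, background subtraction and left-out libraries were alternatives. On simulated data with known changes, the fit without the block recovered no changed gene, and the fit with it missed many of the smaller changes. The simulated counts were given a replicate effect, so the outcome without the block was largely fixed in advance. It is no support for the pairing. CPM use TMM factors. Background was the summed count over the summed span of 389 olfactory receptor genes. The background subtracted from a gene was that density times its span. Named were all members, called genes of each list (up to 6), or the 2 with the smallest p where none was called, and the 5 nearest genes to MFN2 and MIEF1 with an average log2 CPM of at least 2, of which 1 near MFN2 is not reported here. Members and lists were chosen with earlier results of these data known.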

Additional observations from a re-analysis of the deposited data

How the results depend on the processing

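Without the replicate block, no gene, member or related gene was called under any scaling, filter, tool or left-out library. With the replicate block 469 genes, 2 members and 2 of the 70 related genes were called. The corresponding counts with the block were 576, 2 and 5 with DESeq2 size factors, 312, 1 and 1 with upper quartile factors, and 524, 2 and 4 with DESeq2. They were 1492, 2 and 9 with limma-voom, and 231, 1 and 0 with no filter. They were 8, 0 and 0 with factors from genes far above background, and 0 throughout with the background subtracted. Leaving out pairs gave 0 to 259 genes (37 without pair 1, 259 without pair 2), 0 to 1 members and 0 to 1 related genes; the cause was not tested beyond the fewer samples.

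MFN2 (−3.23 to −1.79) and MIEF1 (−1.78 to −0.27) stayed below 0 in all 23 alternatives, and MFN2 was called in 7 and MIEF1 in 4 of the 11 fits with the block. Other members changed sign. MFF was above 0 with the replicate block (0.021), and with the block plus DESeq2 size factors (0.055), upper quartile factors (0.19), no filter (0.11), DESeq2 (0.061) and background subtracted (1.25). Without the block MFF was above 0 with upper quartile factors (0.13), no filter (0.050) and limma-voom (0.091). OPA1 was above 0 with upper quartile factors (0.011) and no filter (0.091), as were MFN1 (0.016) and SLC25A46 (0.0042) with no filter. With factors from genes far above background the values without and with the block were 0.024 and 0.23 for MFN1, 0.13 and 0.15 for OPA1, 0.18 and 0.22 for DNM1L, and 0.12 and 0.055 for FIS1. They were 0.39 and 0.50 for MFF, 0.20 and 0.20 for MIEF2, and 0.038 and 0.16 for SLC25A46. The cause of these sign changes was not tested.

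With 1 library or pair left out, values ran from −0.83 to 0.58 for MFN1, −1.18 to 0.67 for OPA1, −0.98 to 0.60 for DNM1L, −0.94 to 0.66 for FIS1 and −0.78 to 1.11 for MFF. They ran from −0.79 to 0.22 for MIEF2, −0.93 to 1.57 for GDAP1 and −1.16 to 0.73 for SLC25A46. With the block and without pair 2, MFN1 was 0.062 and MFF 0.057, and without pair 3 GDAP1 was −0.25. The log2 ratio difference ran from −2.77 to −1.41 for MFN2 over MFN1, −2.65 to −1.42 for MFN2 over OPA1 and −1.22 to −0.54 for MIEF1 over MIEF2. The ratios of MFN2 could not be computed with the background subtracted, because MFN1 or OPA1 lay below background in a replicate 2 library. Counts were fewest in mutant replicate 2, with 11 to 279 per member, and background made up 79.1% to 81.8% of nuclear counts in replicate 2.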
